A study of Homo sapiens with 24 samples.

Results

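The genes analysed here were the E2F transcription factors E2F1, E2F2, E2F3, E2F5, E2F6, E2F7 and E2F8 and the retinoblastoma gene RB1, 8 of the 57820 genes counted in every library of an RNA-seq study of U2OS cells. The members were taken by gene name, by a rule that uses no measured value, although the family was picked with earlier results of these data known. All 8 were counted in each of the 24 libraries and passed the filter on low counts in every comparison. U2OS is a human osteosarcoma cell line, and AID-DIvA U2OS is a derivative that carries a vector expressing the restriction enzyme AsiSI.

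The study asked how loss of ID3, a helix-loop-helix protein that blocks the DNA binding of other helix-loop-helix factors, and mocetinostat, an inhibitor of class I histone deacetylases, act on these cells. There were 8 groups of 3 biological replicates each. WT and ID3-knockout (ID3-KO) AID-DIvA U2OS cells were left untreated or were given mocetinostat for 24 h followed by 24 h in medium without it. WT and ID3-KO U2OS cells were left untreated or were given mocetinostat for 24 h and, by the study's design, collected before any recovery. The stage of collection and the cell line label changed together, so an effect of recovery and an effect of the cell line cannot be told apart. The dose used for RNA-seq is not given in the sources used here, nor is the number of knockout clones. The treatment field of the 12 AID-DIvA libraries gives the opposite of their titles and library names, which were followed. Were that field right, the AID-DIvA treatment responses below would change sign, the untreated AID-DIvA genotype comparison would be one of treated cells, and the differences between stages would be other values. The library names of the 12 U2OS libraries also carry the word DivA. The p-values below measure the spread between these replicates.

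E2F proteins bind the promoters of genes for DNA replication and the G1/S transition, mostly as dimers with a DP protein. RB1 and its relatives, the pocket proteins, bind E2Fs in G1 and hold these genes down, and cyclin-dependent kinases release E2F by phosphorylating the pocket proteins. E2F1, E2F2 and E2F3 are known as activators, E2F5 as a repressor that works with the pocket proteins, E2F6 as a repressor that works with Polycomb proteins, and E2F7 and E2F8 as atypical repressors that bind DNA without DP. Several E2F genes are themselves known E2F targets, which gives the family a feedback loop.

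The promoters of the 3 activators are shown because activator genes are known E2F targets and because all 3 were lower in the treated U2OS cells. The sequences are from RefSeq on GRCh38.p14, a later build than the hg19 build of the counts. Each runs 5′ to 3′ on the gene's strand, from 250 bases before to 50 bases after the annotated start. Capitals mark an E2F-type motif, searched on both strands as TTTCCCGC, TTTCGCGC, TTTGCCGC and TTTGGCGC.

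E2F1, chr20:33686336-33686635 (−): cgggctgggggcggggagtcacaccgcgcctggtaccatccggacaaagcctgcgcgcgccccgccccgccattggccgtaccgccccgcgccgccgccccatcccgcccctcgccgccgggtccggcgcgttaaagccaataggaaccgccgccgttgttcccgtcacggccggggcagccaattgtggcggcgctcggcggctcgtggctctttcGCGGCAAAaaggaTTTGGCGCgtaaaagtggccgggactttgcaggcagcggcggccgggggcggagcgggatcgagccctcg

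E2F2, chr1:23531184-23531483 (−): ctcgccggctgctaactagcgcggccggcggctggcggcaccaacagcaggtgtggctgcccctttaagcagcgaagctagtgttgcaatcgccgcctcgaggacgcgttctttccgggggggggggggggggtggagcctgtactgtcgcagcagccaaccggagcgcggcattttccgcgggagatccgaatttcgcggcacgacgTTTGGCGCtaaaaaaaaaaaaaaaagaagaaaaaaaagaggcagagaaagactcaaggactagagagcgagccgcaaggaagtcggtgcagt

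E2F3, chr6:20401629-20401928 (+): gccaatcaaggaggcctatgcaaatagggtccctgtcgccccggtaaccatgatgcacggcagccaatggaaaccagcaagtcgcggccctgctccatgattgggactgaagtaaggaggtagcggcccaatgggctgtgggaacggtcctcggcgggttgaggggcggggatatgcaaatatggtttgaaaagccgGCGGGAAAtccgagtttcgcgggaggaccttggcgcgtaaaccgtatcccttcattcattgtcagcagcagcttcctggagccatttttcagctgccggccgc

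The E2F1 window held 2 such motifs, whose first printed bases lay 33 and 20 bases before the start. The one at 33 was on the opposite strand and the one at 20 on the gene's strand. The E2F2 window held 1 at 42 bases before the start, and the E2F3 window held 1 on the opposite strand at 53 bases before it. The windows of E2F6 and E2F7 held none of these letters, so that 3 of the 5 members with a window at the gene's 5′ end had a match. A match stood in 1164 of 35116 promoters of the same length (3.31%), and counted per gene in 1090 of 27305 genes with a window (3.99%). In a list of G1/S genes known as E2F targets, 21 of the 35 genes with a window had a match (60.0%). A match is a run of letters, not a measured binding site.

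Libraries held 37878751 to 76906266 assigned counts in the AID-DIvA cells and 46285533 to 70692114 in the U2OS cells. Each member had enough reads to be measured in each library, from 173 to 783 for E2F5, the lowest, to 3017 to 7076 for E2F1. ID3 itself was still counted in the knockouts, at 34.7 ± 3.6 CPM (counts scaled to the library total; SD, n = 3) against 50.4 ± 2.2 CPM in WT for untreated AID-DIvA cells and 30.6 ± 1.5 against 62.3 ± 15.9 CPM for untreated U2OS cells. The 6 mesenchymal markers fell in sum with treatment, from 1764 to 1789 down to 1136 to 1335 TPM (a scaled count that also allows for gene length) in WT AID-DIvA cells and from 1971 to 2171 down to 1380 to 1503 TPM in ID3-KO. In U2OS cells the sums went from 2184 to 2377 down to 1663 to 1763 TPM in WT and from 2067 to 2189 down to 1655 to 1672 TPM in ID3-KO. The 4 epithelial markers, mainly keratins, were at 202 to 249 TPM untreated and 271 to 302 TPM recovered in ID3-KO AID-DIvA cells, and treated and untreated ranges overlapped in WT AID-DIvA and both U2OS genotypes, at 222 to 313 TPM. Of the blood markers, CD3E was below 0.1 TPM in every group. The part of these markers in the results was not tested. Their single genes are given with the other lists. Replicate 1 of untreated WT U2OS stood apart from replicates 2 and 3, with a chi-square per gene of 82.0 and 92.4 against 2.62 to 24.5 for all other replicate pairs, and the members' results that rest on it are also given without it. Without it ID3 was lower in untreated ID3-KO U2OS cells by 0.80 on the log2 scale, against 1.03 with it.

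Levels were compared between genes in TPM. E2F1 (ENSG00000101412.9, chr20:32263489-32274210) had the highest level of the 8 genes in each of the 8 groups, between 82.0 ± 6.6 TPM in untreated WT AID-DIvA cells and 141.6 ± 3.1 TPM in untreated ID3-KO U2OS cells (SD, n = 3). It made up 57.7% to 74.9% of the summed TPM of the 3 activators over the 24 libraries. E2F5 had the lowest level in every group, 2.63 to 6.47 TPM, and E2F8 was next to last throughout. The other members lay between 15.5 and 39.4 TPM. Within a gene, levels are in CPM after scaling of the libraries by trimmed means. Neighbouring groups in the order of levels had replicate ranges that did not overlap in 19 of 56 pairs over the members. Such pairs were not counted over all genes, so the count does not set the members apart.

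**Figure D1:**
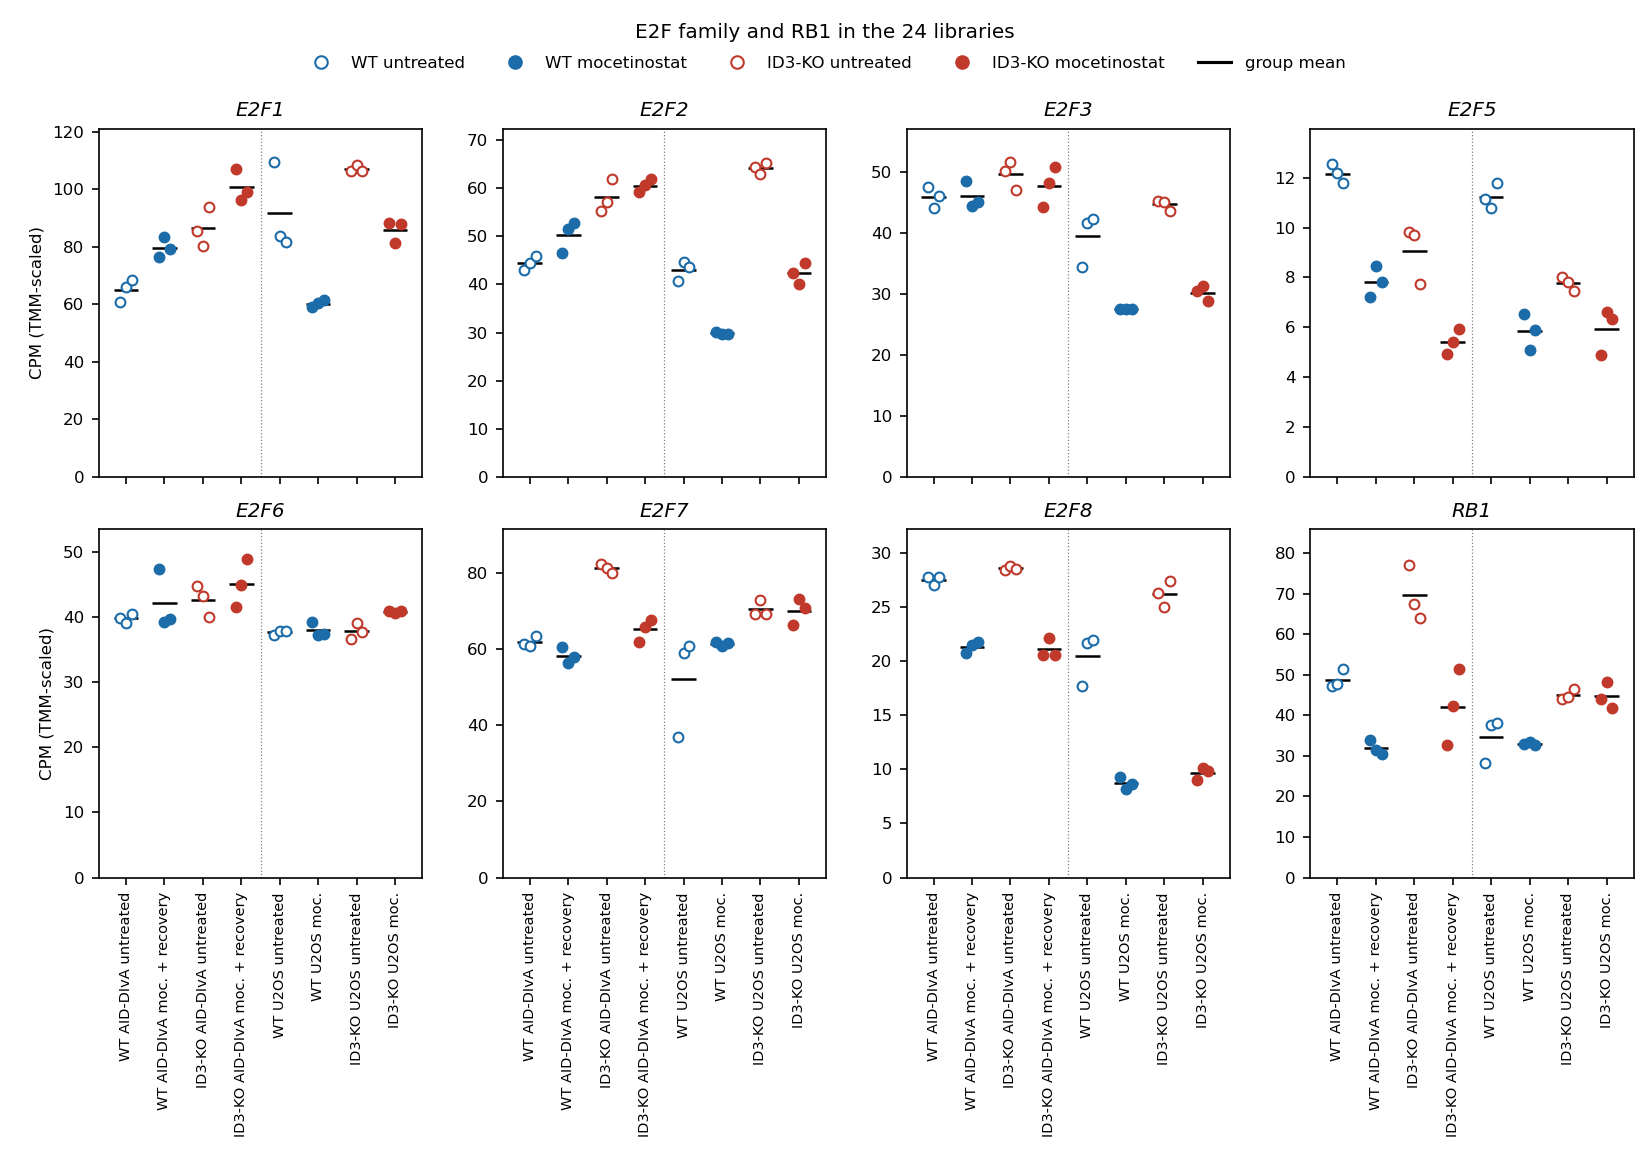
Level of each of the 8 genes in CPM (y axis, linear, separate scale per gene) in the 8 groups (x axis; moc., mocetinostat), with a point per library and a bar at the mean of 3 replicates. E2F8 sits at 8.69 and 9.63 CPM in the treated U2OS groups and at 20.4 to 28.5 CPM in the other groups.

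The activators differed in their response by cell line and stage. In these bulk libraries, fewer cells in a cell cycle phase and less RNA per cell cannot be told apart. E2F1 read 61.0, 65.9 and 68.4 CPM in untreated WT AID-DIvA cells and 76.5, 83.2 and 79.1 CPM after mocetinostat and recovery. In the same ID3-KO cells it read 85.3, 80.1 and 93.7 CPM untreated and 106.9, 96.1 and 99.1 CPM after recovery. In both genotypes every recovered library was above every untreated one. E2F1 was thus higher after recovery by 0.30 ± 0.05 on the log2 scale in WT (SE; edgeR quasi-likelihood test, adjusted p = 0.0004) and by 0.22 ± 0.07 in ID3-KO (adjusted p = 0.038). The ID3-KO call was lost without untreated replicate 1 or 2 or recovered replicate 2 or 3, with adjusted p from 0.067 to 0.15. It was also lost with a replicate block (edgeR adjusted p = 0.069).

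In U2OS cells collected before recovery E2F1 went the other way. Untreated WT libraries held 109.5, 83.9 and 81.5 CPM and treated ones 58.9, 60.3 and 61.5 CPM. Untreated ID3-KO libraries held 106.2, 108.4 and 106.4 CPM and treated ones 88.3, 81.4 and 87.7 CPM. The groups did not overlap in either genotype, although untreated WT replicate 1 lay well above its fellows. E2F1 fell by 0.60 ± 0.12 on the log2 scale in WT (edgeR adjusted p = 0.0048) and by 0.31 ± 0.05 in ID3-KO (edgeR adjusted p = 1.9e-06). Without that replicate the WT value was a decrease of 0.45, in a fit that called 66.4% of all genes.

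E2F2 (ENSG00000007968.6, chr1:23832922-23857712), a second activator, held 43.0, 44.4 and 45.8 CPM in untreated WT AID-DIvA cells and 46.4, 51.5 and 52.8 CPM after recovery. The rise of 0.19 ± 0.06 on the log2 scale (edgeR adjusted p = 0.014) was small, and it was lost when untreated replicate 1 or 2 or recovered replicate 2 or 3 was left out (adjusted p 0.052 to 0.076). In ID3-KO AID-DIvA cells the groups overlapped, at 55.2, 57.2 and 61.9 CPM untreated and 59.2, 60.6 and 61.8 CPM recovered, with a difference of 0.06 ± 0.07 (edgeR adjusted p = 0.53). In U2OS cells E2F2 was lower in every treated library. WT cells held 40.6, 44.6 and 43.6 CPM untreated and 30.04, 29.6 and 29.7 CPM treated, a decrease of 0.52 ± 0.07 on the log2 scale (edgeR adjusted p = 0.0006). The ID3-KO cells held 64.5, 62.9 and 65.2 CPM and then 42.5, 40.02 and 44.5 CPM, a decrease of 0.59 ± 0.05 (edgeR adjusted p = 2.6e-10).

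E2F3 (ENSG00000112242.10, chr6:20402398-20493941), the remaining activator, showed no call in AID-DIvA cells. Its group means there ran only from 46.0 to 49.7 CPM, with log2 differences of 0.01 ± 0.05 in WT and -0.05 ± 0.08 in ID3-KO (edgeR adjusted p = 0.88 and 0.64). In U2OS cells it fell. Untreated WT libraries read 34.5, 41.7 and 42.4 CPM and treated ones 27.6, 27.6 and 27.5 CPM. Untreated ID3-KO libraries read 45.4, 45.2 and 43.7 CPM and treated ones 30.5, 31.3 and 28.8 CPM. The treated libraries were below all untreated ones in both genotypes, by 0.51 ± 0.09 and 0.56 ± 0.05 on the log2 scale (edgeR adjusted p = 0.0027 and 1e-09).

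The atypical repressor E2F8 (ENSG00000129173.8, chr11:19245610-19263167) had the largest treatment response of the 8 genes in U2OS cells on the counts as deposited. It read 17.7, 21.6 and 21.9 CPM in untreated WT and 9.30, 8.15 and 8.62 CPM in treated WT cells, and 26.2, 25.0 and 27.4 CPM in untreated and 8.98, 10.1 and 9.80 CPM in treated ID3-KO cells. Every treated library was below every untreated one. The decreases were 1.22 ± 0.11 on the log2 scale in WT and 1.44 ± 0.06 in ID3-KO (edgeR adjusted p = 7.3e-05 and 3.6e-15). On these counts E2F8 was the only member with a called log2 decrease beyond 1. That bound was passed by 5.06% of all genes tested in WT and 5.77% in ID3-KO. After recovery E2F8 was still lower in AID-DIvA cells, at 20.7, 21.5 and 21.7 CPM against 27.8, 27.0 and 27.8 CPM in WT. The ID3-KO values were 20.5, 22.1 and 20.6 CPM against 28.4, 28.8 and 28.5 CPM. These smaller decreases of 0.36 ± 0.05 and 0.44 ± 0.07 on the log2 scale also passed the test (edgeR adjusted p = 9.2e-05 and 0.001).

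E2F7 (ENSG00000165891.11, chr12:77415027-77459360), the other atypical repressor, did not move with E2F8. In WT AID-DIvA cells it was at 61.8 ± 1.3 CPM untreated and 58.2 ± 2.1 CPM after recovery, a difference short of the threshold (edgeR adjusted p = 0.2). In ID3-KO AID-DIvA cells it read 82.4, 81.2 and 79.9 CPM untreated and 61.8, 65.8 and 67.7 CPM after recovery, a decrease of 0.32 ± 0.07 on the log2 scale with no overlap (edgeR adjusted p = 0.0048). In U2OS cells neither genotype gave a call. Treated WT libraries held 61.7, 60.7 and 61.5 CPM beside 36.8, 58.8 and 60.9 CPM untreated, where the low value was replicate 1. The WT difference was 0.25 ± 0.17 with that library and 0.04 without it (edgeR adjusted p = 0.28 and 0.34). In ID3-KO U2OS cells the treated and untreated means were 70.0 and 70.4 CPM.

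E2F6 (ENSG00000169016.12, chr2:11584501-11606297) was the flattest member, with group means from 37.7 to 45.2 CPM. In AID-DIvA cells its recovered and untreated libraries overlapped in both genotypes. In WT U2OS cells it read 37.3, 37.9 and 37.9 CPM untreated and 39.2, 37.3 and 37.4 CPM treated, and the log2 difference was 0.02 ± 0.07. In ID3-KO U2OS cells the treated libraries, at 41.0, 40.6 and 41.0 CPM, were above the untreated ones at 36.7, 39.1 and 37.7 CPM. That difference of 0.12 ± 0.05 passed the test (edgeR adjusted p = 0.033), and it was lost without untreated replicate 1 or 3 or treated replicate 3, without a filter on low counts (edgeR adjusted p = 0.12) and with all 4 U2OS groups in the fit (edgeR adjusted p = 0.076).

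RB1 (ENSG00000139687.9, chr13:48877887-49056122), which encodes the pocket protein that restrains the activator E2Fs, was lower after recovery. WT AID-DIvA cells held 47.2, 47.8 and 51.4 CPM untreated and 33.97, 31.5 and 30.5 CPM recovered. The ID3-KO cells held 77.2, 67.6 and 64.1 CPM untreated and 32.7, 42.3 and 51.4 CPM recovered. The groups did not overlap, although the recovered ID3-KO libraries were widely spread. RB1 decreased by 0.60 ± 0.06 on the log2 scale in WT (edgeR adjusted p = 1.5e-06) and by 0.72 ± 0.15 in ID3-KO (edgeR adjusted p = 0.0042). Before recovery, in U2OS cells, no call was made. WT libraries read 28.2, 37.7 and 38.1 CPM untreated and 32.8, 33.5 and 32.6 CPM treated, so that replicate 1 was below the treated libraries and replicates 2 and 3 were above them. The log2 difference was -0.06 ± 0.12 with all libraries and -0.19 ± 0.05 without replicate 1 (edgeR adjusted p = 0.7 and 0.00037), so the call turned on that library. In ID3-KO U2OS cells the means were 44.8 CPM treated and 45.1 CPM untreated.

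**Figure D2:**
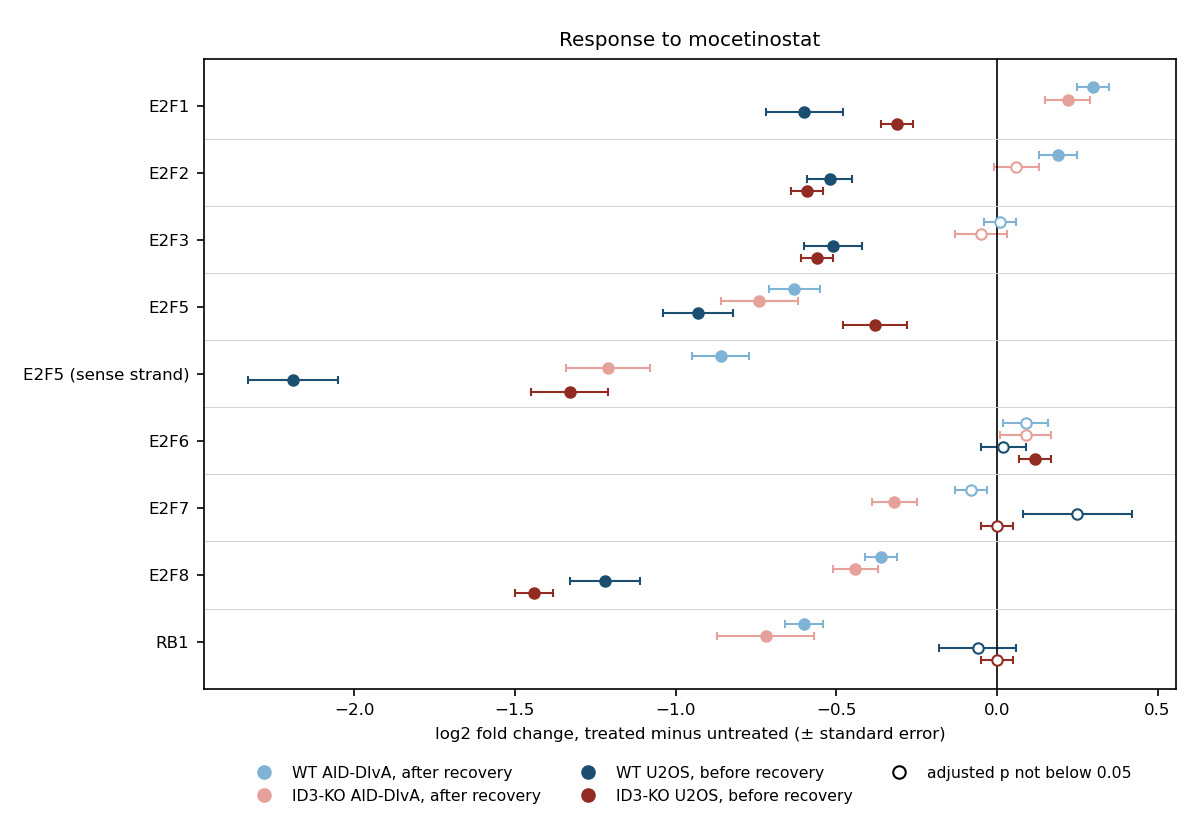
Log2 difference of mocetinostat-treated against untreated libraries (x axis) for each gene (y axis) in the 4 treatment comparisons, with E2F5 also on its own strand, bars of 1 SE and filled points where the adjusted p is below 0.05. In U2OS cells E2F8 lies at -1.22 and -1.44, and E2F1 lies left of 0 there and right of 0 in AID-DIvA cells.

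E2F5 (ENSG00000133740.6, chr8:86089460-86129387), the repressor that works with pocket proteins, needed a check of strand. The deposited counts that were tested do not use strand, and E2F5 overlaps C8orf59 and RP11-219B4.3 on the opposite strand. Counts on the strand of E2F5 alone made up 25.1% to 93.1% of its count, against 99.7% to 107% for the other members. On the strand-blind counts WT AID-DIvA cells held 12.5, 12.2 and 11.8 CPM untreated and 7.23, 8.45 and 7.82 CPM recovered, and ID3-KO cells held 9.81, 9.70 and 7.72 and then 4.93, 5.40 and 5.94 CPM. WT U2OS cells held 11.1, 10.8 and 11.8 CPM untreated and 6.54, 5.08 and 5.90 CPM treated, and ID3-KO cells held 8.01, 7.81 and 7.47 and then 4.89, 6.62 and 6.32 CPM. E2F5 was lower in each treated group, without overlap, by 0.63 ± 0.08, 0.74 ± 0.12, 0.93 ± 0.11 and 0.38 ± 0.10 on the log2 scale in that order (edgeR adjusted p = 1.6e-05, 0.00089, 0.00034 and 0.0013).

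The sense-strand counts of E2F5 gave the same directions with larger sizes. WT AID-DIvA cells went from 11.4, 9.88 and 10.2 CPM to 5.57, 6.35 and 5.41 CPM, and ID3-KO cells from 7.98, 7.61 and 6.25 CPM to 2.77, 3.13 and 3.51 CPM. WT U2OS cells went from 9.89, 7.62 and 8.36 CPM to 2.10, 1.78 and 1.75 CPM, and ID3-KO cells from 4.58, 4.77 and 4.62 CPM to 1.92, 2.16 and 1.55 CPM. In the U2OS cells no treated library exceeded 2.16 CPM, and no groups compared overlapped. The log2 differences were -0.86 ± 0.09 and -1.21 ± 0.13 after recovery and -2.19 ± 0.14 and -1.33 ± 0.12 before it, in WT and ID3-KO respectively (edgeR adjusted p = 5.2e-06, 7.7e-05, 1.7e-05 and 1.2e-09). Without replicate 1 of untreated WT U2OS the WT value there was -2.08 ± 0.11 (edgeR adjusted p = 7.6e-22). By this count E2F5, not E2F8, had the largest decrease of the members in WT U2OS cells.

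**Figure D3:**
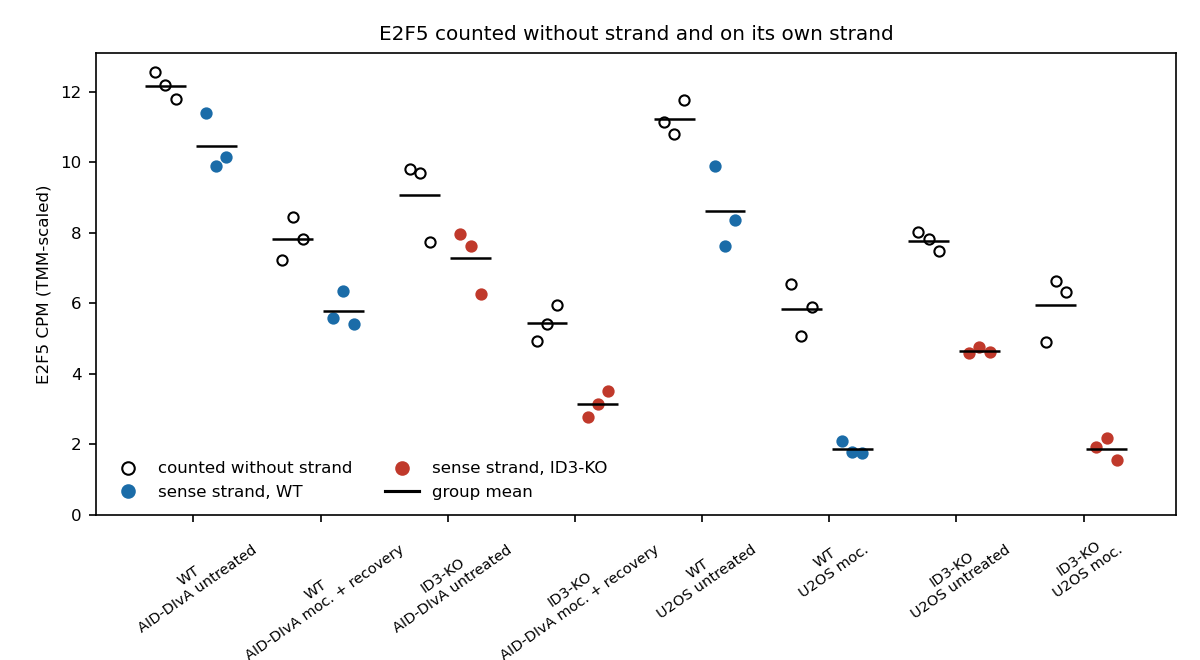
Level of E2F5 in CPM (y axis, linear) in the 8 groups (x axis; moc., mocetinostat), counted without strand and on its own strand, with a point per library and a bar at the mean of 3 replicates. The sense-strand values lie below the strand-blind ones in each group, and furthest below in proportion in the treated U2OS groups.

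Counted together, 5 of the 8 members were called in WT AID-DIvA cells after recovery, 2 higher and 3 lower, where 46.9% of the 20289 genes tested were called, 23.9% higher and 23.0% lower. In ID3-KO AID-DIvA cells 5 were called, 1 higher and 4 lower, beside 40.1% of all genes, 20.2% higher and 19.9% lower. In WT U2OS cells 5 were called, all lower, beside 48.9% of all genes called, 26.0% higher and 22.9% lower. In ID3-KO U2OS cells 6 were called, 1 higher and 5 lower, beside 69.9% of all genes, 35.8% higher and 34.0% lower. Without WT untreated replicate 1, the values in WT U2OS cells were -0.56 for E2F2, -0.60 for E2F3, -0.93 for E2F5 and -1.31 for E2F8, all still called. With a further bound of 1 on the log2 size of the strand-blind values, E2F8 in the U2OS cells was the only member called, where 7.38% and 7.46% of all genes passed in WT and ID3-KO AID-DIvA cells and 18.6% and 20.3% in WT and ID3-KO U2OS cells. E2F5 and E2F8 were lower in all 4 treatment comparisons, while E2F1, E2F2 and E2F3 were lower only in the U2OS cells.

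The responses in the 2 settings were set against each other in a model of all 24 libraries. In WT the response after recovery minus the response before it was 0.89 ± 0.12 on the log2 scale for E2F1, 0.70 ± 0.09 for E2F2, 0.52 ± 0.10 for E2F3 and 0.86 ± 0.11 for E2F8, and for RB1 it was -0.54 ± 0.16. In ID3-KO the values for these genes were 0.54 ± 0.12, 0.66 ± 0.09, 0.51 ± 0.10, 1.01 ± 0.11 and -0.71 ± 0.16. These 5 members were called in each genotype, with edgeR adjusted p from 1.9e-08 to 0.0087, beside 45.4% of all genes in WT and 46.0% in ID3-KO. On strand-blind counts E2F8 in ID3-KO alone passed a log2 size of 1, beside 15.8% of all genes in WT and 16.6% in ID3-KO. Without replicate 1 of untreated WT U2OS the WT values were 0.75 for E2F1, 0.75 for E2F2, 0.62 for E2F3, 0.96 for E2F8 and -0.40 for RB1, all still called, beside 47.1% of all genes. The difference is between cell line labels as much as between stages. Counted on its own strand, E2F5 was also called in WT, at 1.34 ± 0.17 (edgeR adjusted p = 5.4e-07), while the strand-blind value was 0.30 ± 0.15 (adjusted p = 0.11). The test called 48.7% of all genes on sense-strand counts. Without replicate 1 the sense-strand value was 1.23 ± 0.16 (edgeR adjusted p = 2.1e-07).

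Loss of ID3 was compared in untreated cells. In AID-DIvA cells E2F1, E2F2, E2F7 and RB1 were higher in ID3-KO than in WT and E2F5 was lower, 4 members higher and 1 lower beside 36.7% of all genes called, 18.6% higher and 18.1% lower. None passed a log2 size of 1, which 4.58% of all genes did, and none did in U2OS cells, where 4.26% of all genes did. Every ID3-KO library of these 5 genes lay outside the WT range, which adds no support, since the same libraries gave the calls. The ID3-KO libraries of E2F8, which was not called, also lay outside its WT range. The largest rise was that of RB1, 69.7 ± 6.7 against 48.8 ± 2.3 CPM, or 0.49 ± 0.06 on the log2 scale (edgeR adjusted p = 7.5e-06). E2F1, E2F2 and E2F7 were higher by 0.38 ± 0.06, 0.36 ± 0.05 and 0.37 ± 0.04 (edgeR adjusted p = 0.00012, 6.4e-05 and 4.6e-06). E2F5 was lower, at -0.44 ± 0.08 on strand-blind and -0.54 ± 0.09 on sense-strand counts (edgeR adjusted p = 0.00043 and 0.00017). E2F3, E2F6 and E2F8 gave 0.09, 0.07 and 0.03, short of the threshold.

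In untreated U2OS cells the comparison depended on replicate 1 of WT. With all 6 libraries 2 members were called, beside 15.2% of all genes. E2F2 was higher in ID3-KO by 0.58 ± 0.07 on the log2 scale and E2F5 was lower, at -0.53 ± 0.08 (edgeR adjusted p = 0.0019 and 0.0052). For E2F2 the ID3-KO libraries, at 62.9 to 65.2 CPM, were all above the WT ones, at 40.6 to 44.6 CPM. Without replicate 1, 6 members were called beside 41.1% of all genes, with E2F1 at 0.37, E2F2 at 0.54, E2F7 at 0.24, E2F8 at 0.27, RB1 at 0.25 and E2F5 at -0.54. E2F3 and E2F6 stayed uncalled, at 0.09 and 0.00. On sense-strand counts of all libraries E2F5 was at -0.88 ± 0.11 (edgeR adjusted p = 0.0025), and at -0.77 ± 0.09 without that replicate (edgeR adjusted p = 3.7e-09). E2F2 lies 26696 bases from ID3 on chromosome 1, with 1 annotated gene, RP1-150O5.3, between them.

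**Figure D4:**
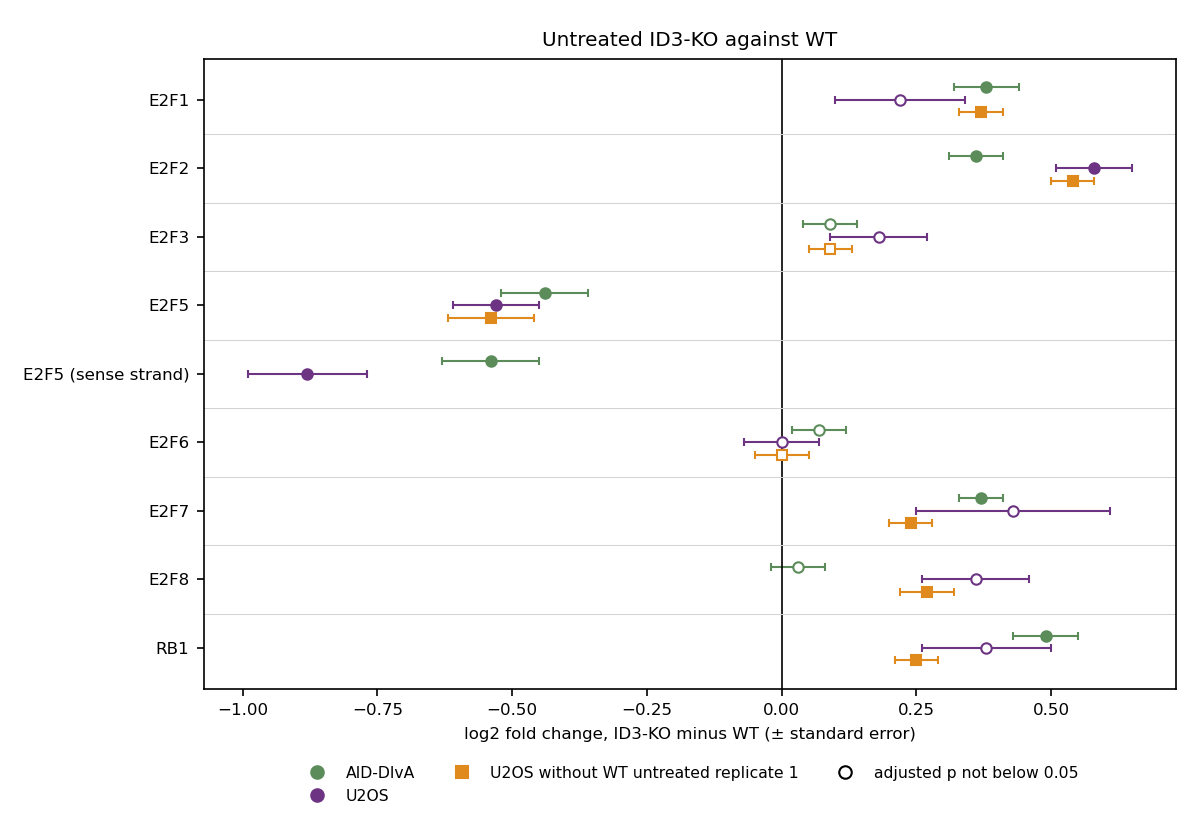
Log2 difference of untreated ID3-KO against untreated WT libraries (x axis) for each gene (y axis) in AID-DIvA and U2OS cells, with E2F5 also on its own strand, bars of 1 SE, filled points where the adjusted p is below 0.05, and the U2OS values also without WT replicate 1. E2F2 lies right of 0 and E2F5 left of 0 in both cell lines.

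Whether the response to mocetinostat differed between genotypes was tested as an interaction. No member was called in either cell line, where 1.21% of all genes were called in AID-DIvA cells and 2.15% in U2OS cells. At an unadjusted p under 0.05 the count was 1 of 8 in AID-DIvA and 2 of 8 in U2OS cells, beside 11.8% and 13.2% of all genes. DESeq2 called 0 and 1, beside 2.80% and 4.92% of all genes. The member that DESeq2 called was E2F5 in U2OS cells, whose value in edgeR was 0.55 ± 0.16 on the log2 scale (adjusted p = 0.12, and 0.0026 to 0.27 over the alternatives). Its sense-strand value was 0.87 ± 0.19 and was called (edgeR adjusted p = 0.031), beside 2.27% of all genes, and without WT untreated replicate 1 that value was 0.75 ± 0.17 (edgeR adjusted p = 0.0026), beside 10.1%. Without WT untreated replicate 1 it was 0.55 ± 0.14 and called (edgeR adjusted p = 0.0075), beside 9.03% of all genes, and without treated ID3-KO replicate 1 it was 0.68 and called (edgeR adjusted p = 0.037). For E2F1, whose decrease in U2OS cells was 0.60 in WT and 0.31 in ID3-KO, the difference was 0.29 ± 0.13 (edgeR adjusted p = 0.37), and 0.14 ± 0.06 without WT untreated replicate 1 (edgeR adjusted p = 0.18).

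Of 4 genes for dimer partners and relatives of the pocket protein, 1 was called in each AID-DIvA genotype after recovery. The shares of all genes called there were 46.9% in WT and 40.1% in ID3-KO. RBL2, a pocket protein, was lower by 0.19 ± 0.04 on the log2 scale in WT and 0.25 ± 0.08 in ID3-KO AID-DIvA cells (edgeR adjusted p = 0.0028 and 0.033). TFDP1, TFDP2 and RBL1 gave no call, with RBL1 at -0.31 ± 0.11 in ID3-KO, short of the threshold (edgeR adjusted p = 0.053). In WT U2OS cells TFDP1, the main DP protein, fell by 0.44 ± 0.08 and RBL1, another pocket protein, fell by 0.35 ± 0.11 (edgeR adjusted p = 0.0019 and 0.029), beside 22.9% of all genes lower. Without untreated replicate 1 these values were -0.40 and -0.46, and RBL2 was called too, at -0.44, beside 32.5% of all genes lower. All 4 genes were lower in treated ID3-KO U2OS cells, beside 34.0% of all genes, with a median of -0.39 against 0.00 over all genes tested.

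Of 8 genes for G1 cyclins and their kinases, 3 rose and 1 fell in WT AID-DIvA cells and 3 rose and none fell in ID3-KO, beside 46.9% and 40.1% of all genes called. CCND2, a D-type cyclin, rose by 0.73 and 0.71 on the log2 scale. CCND3 rose by 0.34 and CDK4, the partner of D-type cyclins, fell by 0.37 in WT, while CCND3 gave 0.06 and CDK4 -0.05 in ID3-KO, short of the threshold. The ID3-KO response minus the WT response was 0.32 ± 0.07 for CDK4, which was called (edgeR interaction, adjusted p = 0.021), beside 1.21% of all genes. It was -0.28 ± 0.08 for CCND3, short of the threshold (edgeR interaction, adjusted p = 0.13). CCNE1, an E-type cyclin, rose by 0.23 and 0.18, and CCND1 rose by 0.17 in ID3-KO and gave 0.16 in WT, short of the threshold. In U2OS cells 2 rose and 4 fell in WT, and 3 rose and 5 fell in ID3-KO, beside 48.9% and 69.9% of all genes called. There CCND2 went the other way, lower by 0.32 and 0.11 (edgeR adjusted p = 0.011 and 0.02), and CCND1 rose by 0.28 and 0.34. CCNE2, another E-type cyclin, fell by 0.81 and 0.74 and CDK4 fell by 0.81 and 0.73, while CCND3 rose by 0.63 and 0.55. Without WT untreated replicate 1, 2 rose and 6 fell in WT, with CCNE2 at -0.91, CDK4 at -0.71 and CCND3 at 0.74, beside 66.4% of all genes called.

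Among inhibitors of these kinases, 1 rose and 4 fell of 5 tested in each AID-DIvA genotype, and 3 rose of 6 tested in each U2OS genotype, with 2 lower in WT and 3 lower in ID3-KO. The shares of all genes called were the 46.9%, 40.1%, 48.9% and 69.9% above. CDKN2C, an inhibitor of CDK4 and CDK6, decreased by 1.55 to 1.64 in all 4 comparisons, and CDKN1B, which encodes p27, was lower throughout, at -0.85 and -1.10 in AID-DIvA and -0.76 and -1.01 in U2OS cells. CDKN1A, which encodes p21, rose in all 4 comparisons, by 1.21 in WT and 0.94 in ID3-KO AID-DIvA cells and by 0.92 and 0.95 in U2OS cells. CDKN2D, another inhibitor of CDK4 and CDK6, fell by 0.90 and 1.05 in AID-DIvA cells and rose by 0.56 and 0.79 in U2OS cells.

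The listed E2F target genes, 40 genes of DNA replication and the G1/S transition, were mostly lower in the treated U2OS cells. There 34 of 40 fell in each genotype, beside 22.9% of all genes lower in WT and 34.0% in ID3-KO, with a median log2 difference of -0.62 in WT and -0.48 in ID3-KO, beside 0.01 and 0.00 over all genes tested. None rose in WT and 1 rose in ID3-KO, and without WT replicate 1 the WT count was 38 lower, beside 32.5% of all genes. MCM5, a subunit of the replicative helicase, fell from 274.6 ± 13.7 to 89.2 ± 2.7 CPM in WT and from 295.7 ± 9.0 to 92.2 ± 4.6 CPM in ID3-KO, log2 differences of -1.61 and -1.67. UNG, a uracil glycosylase, fell by 1.56 in both genotypes and TYMS, which makes thymidylate, fell by 1.30 and 1.19.

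In AID-DIvA cells after recovery the same list was split. In WT 21 rose and 9 fell, with a median of 0.15, and in ID3-KO 13 rose and 7 fell, with a median of 0.11, beside 46.9% and 40.1% of all genes called. The ID3-KO count of 20 was 13 without recovered replicate 2, where 30.0% of all genes were called, and 13 with a replicate block, where 32.2% were. The largest changes were decreases. RRM2, a subunit of ribonucleotide reductase, fell by 0.81 and 0.98 and CCNA2, the S-phase cyclin, fell by 0.71 and 1.0 on the log2 scale. TK1, a thymidine kinase, fell by 0.53 and 0.51, and TYMS fell by 0.47 and 0.55, in WT and ID3-KO. Between untreated genotypes, 14 were higher and 2 lower in ID3-KO AID-DIvA cells, with a median of 0.07, beside 18.6% and 18.1% of all genes. That count of 16 was 8 with all 4 AID-DIvA groups in the fit, beside 28.4% of all genes called, and 7 without WT untreated replicate 1 or 2. In ID3-KO U2OS cells 1 was higher, beside 6.56% of all genes. Without WT replicate 1, 34 were higher and 1 lower there, beside 20.5% and 20.6% of all genes. With all libraries DESeq2 called 7 of the 40 there, beside 19.1% of all genes, and edgeR with all 4 U2OS groups called 13, beside 25.0%. The response after recovery minus that before it was higher for 31 genes in WT and 27 in ID3-KO, with 1 and 2 lower, beside 22.6% of all genes higher in WT and 21.7% in ID3-KO. No target was called in the interaction by edgeR in either cell line with all libraries, while 9 were called higher in U2OS cells without WT replicate 1, beside 4.46% of all genes. DESeq2 called 3 targets in the U2OS interaction with all libraries, beside 4.92% of all genes.

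**Figure D5:**
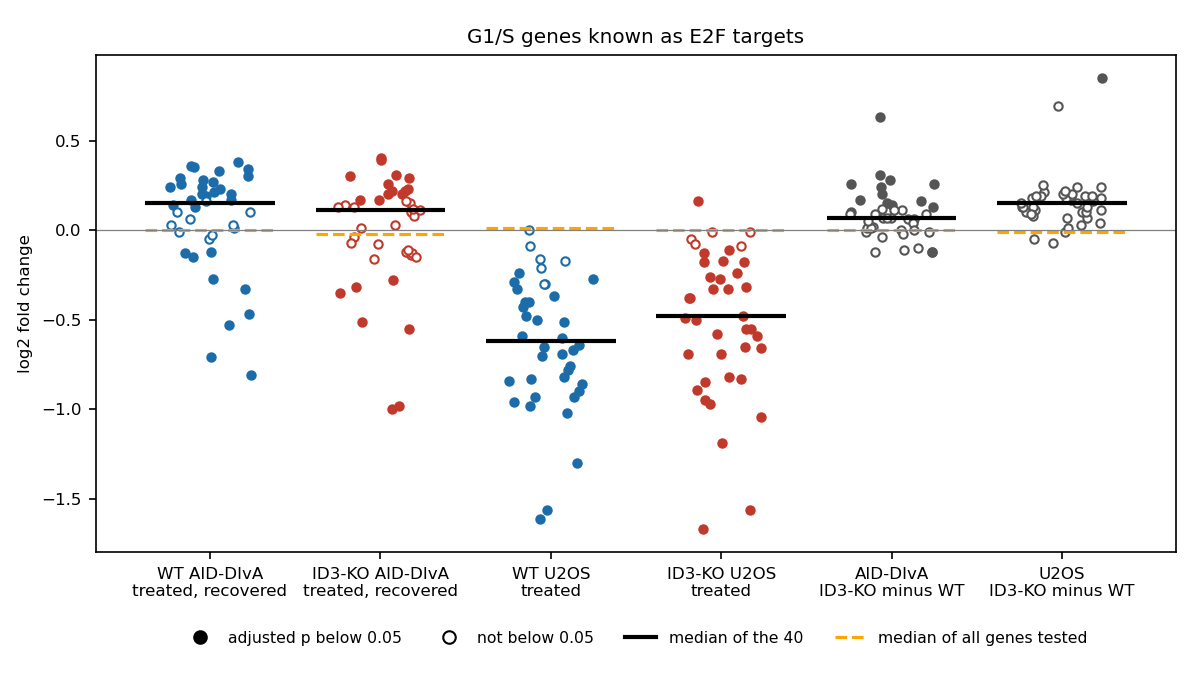
Log2 difference (y axis) for the 40 listed E2F target genes in the 4 comparisons of mocetinostat-treated against untreated libraries and the 2 of untreated ID3-KO against WT (x axis), with a point per gene, filled where the adjusted p is below 0.05, a bar at the list's median and a dashed line at the median of all genes tested. The medians are 0.15 and 0.11 after recovery in AID-DIvA cells and -0.62 and -0.48 before recovery in U2OS cells.

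Genes known to act with E2F6 or to be silenced by it were also listed. Of 9 genes of its Polycomb complex, 3 rose and 2 fell in WT AID-DIvA cells, 1 rose and 1 fell in ID3-KO, 3 rose and 4 fell in WT U2OS, and 4 rose and 5 fell in ID3-KO U2OS cells, beside 46.9%, 40.1%, 48.9% and 69.9% of all genes called in that order. L3MBTL2, which reads histones in that complex, fell by 1.27 and 1.43 on the log2 scale in U2OS cells, and PCGF6, its defining PCGF subunit, fell by 0.54 and 0.52. MAX, a DNA-binding subunit, rose in all 4 comparisons, by 0.24, 0.35, 0.60 and 0.70. RYBP, a subunit shared by several such complexes, fell by 0.34 and 0.36 in AID-DIvA cells and rose by 0.44 and 0.51 in U2OS cells (edgeR adjusted p = 0.0003, 0.041, 0.0024 and 2.1e-08). Of 5 germline genes known to be held silent by E2F6, SMC1B, SLC25A31 and MAEL had group means of at most 0.205 CPM. STAG3, a meiotic cohesin, was at 3.69 to 7.34 CPM, lower after recovery in both AID-DIvA genotypes and higher in treated ID3-KO U2OS cells, at 0.37 ± 0.09 (edgeR adjusted p = 0.0011). TUBA3C, a tubulin gene with near-identical copies whose reads may be split, was lower in WT AID-DIvA cells and in both U2OS genotypes. Without WT untreated replicate 1, L3MBTL2 was at -1.20, PCGF6 at -0.48, MAX at 0.69 and RYBP at 0.42 in WT U2OS cells.

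The markers of cell types changed unevenly. Of the mesenchymal ones, SPARC, a matrix protein, fell in all 4 comparisons, by 0.48 and 0.45 in AID-DIvA and 0.66 and 0.56 in U2OS cells. FN1, which encodes fibronectin, fell by 0.71 and 0.93 in AID-DIvA cells and by 0.20 in ID3-KO U2OS cells. In WT U2OS cells FN1 gave 0.04 with all libraries and -0.24 without untreated replicate 1, which was called (edgeR adjusted p = 0.032). RUNX2, an osteoblast transcription factor, fell by 1.53 and 0.97 in U2OS cells and rose by 0.43 in ID3-KO AID-DIvA cells. COL1A1, a collagen chain, fell by 0.63 and 0.65 in U2OS cells and by 0.43 in ID3-KO AID-DIvA cells. VIM, which encodes vimentin, fell by 0.22 and 0.35 in AID-DIvA cells and gave -0.15 and 0.04 in U2OS cells, short of the threshold. COL1A2, another collagen chain, had group means of only 0.139 to 1.24 CPM and did not fall. It rose by 1.01 in ID3-KO U2OS cells (edgeR adjusted p = 0.038). It gave 0.57 and 0.02 in WT and ID3-KO AID-DIvA cells and 0.35 in WT U2OS cells, short of the threshold. Of the epithelial ones, EPCAM, an adhesion protein, rose in all 4 comparisons, by 0.28, 0.46, 0.66 and 0.79. The keratin gene KRT18 rose by 0.45 and 0.62 in AID-DIvA cells, KRT8 fell by 0.46 and 0.36 in U2OS cells, and CDH1, which encodes E-cadherin, rose by 0.85 in WT AID-DIvA cells and was not called elsewhere. Without WT untreated replicate 1, KRT18 was also called higher in WT U2OS cells, at 0.13 (edgeR adjusted p = 0.0018), in a fit that called 66.4% of all genes.

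The members varied together to different degrees over the 24 libraries, after the mean of each cell line label was taken off the log2 CPM. Pearson's r was 0.92 between E2F3 and E2F8, 0.88 between E2F1 and E2F2, 0.79 between E2F2 and E2F3, and 0.78 between E2F7 and RB1. It was 0.08 between the atypical repressors E2F7 and E2F8. These values describe libraries that share treatment, genotype and scaling. By the same measure, the genes most like a member over all genes with a mean of at least 1 CPM were PSMG3 for E2F1 (r = 0.964), RAD51D for E2F2 (0.961) and MELK for E2F5 (0.939, strand-blind counts). They were UBE2E1 for E2F6 (0.857), HIPK1 for E2F7 (0.967), NEXN and NEK6 for E2F8 (0.986 each) and LBR for RB1 (0.962). E2F6, the flattest member, had the lowest of these values.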

How the data were processed

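RNA-seq was done on total RNA with a stranded kit, in 24 libraries of 8 groups. Per the study's methods, the authors aligned reads to hg19 with STAR and counted them per gene with featureCounts. The deposited counts per gene are raw and ignore strand, and separate deposited counts per strand and TPM values were used for the E2F5 check and for levels between genes. The methods name an annotation release whose identifiers differ in form from those in the files.

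The 8 members and the gene lists were chosen with earlier results of these data known. Groups follow the sample titles, and the stage of the U2OS libraries follows the study's design text. Counts were tested with edgeR 4.0.16 (R 4.3.3; filterByExpr, TMM scaling, robust quasi-likelihood fit), with Benjamini-Hochberg adjustment over all genes tested and a call at an adjusted p below 0.05. The 2-group comparisons used only their own 6 libraries, the interaction used the 12 libraries of a cell line label, and the comparison of stages used all 24. The SE is the log2 difference divided by the square root of F. CPM values were scaled by TMM over all libraries. The sense-strand counts were those of the reverse strand, with totals of that strand and the same scaling factors for levels.

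All members are named. Of each list, the 3 genes with the largest called treatment response and a mean of at least 1 CPM are named, and every gene of a list of 5 or fewer. Likeness used log2 CPM with a pseudocount of 0.5, and the gene most like E2F3 is not reported here. For the alternatives, DESeq2 1.42.0 (test and size factors), other filters, strand, a replicate block, a larger fit, a fold threshold and leaving out each library were tried. The sense-strand levels of E2F5, the target and list values without a library, sense-strand tests without it and the genes around ID3 were added after seeing the data. The edgeR fit was tested on simulated data. Same-numbered replicates had correlations of their deviations from -0.426 to 0.306 and were not treated as pairs. Promoter windows matched 6 of the 8 members in the RefSeq table. That of RB1 began 172699 bases inside the gene from its 5′ end and was not used, and E2F5 and E2F8 are named only.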

Additional observations from a re-analysis of the deposited data

Results flagged for a closer look

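The response to mocetinostat differed between AID-DIvA cells after recovery and U2OS cells before it for 5 members in each genotype, by the interaction term of an edgeR fit of all 24 libraries. The same test called 45.4% of all genes in WT and 46.0% in ID3-KO. In WT the response after recovery minus that before it was 0.89 on the log2 scale for E2F1 (adjusted p = 7.3e-07), 0.70 for E2F2 (3.7e-07), 0.52 for E2F3 (0.00014) and 0.86 for E2F8 (2.9e-07). Without replicate 1 of untreated WT U2OS these values were 0.75, 0.75, 0.62 and 0.96, all called, beside 47.1% of all genes. For RB1 it was -0.54 (adjusted p = 0.0087), and -0.40 without that replicate (edgeR adjusted p = 0.035). In ID3-KO the same values were 0.54 for E2F1 (edgeR adjusted p = 0.00048), 0.66 for E2F2 (8.4e-07), 0.51 for E2F3 (0.00016), 1.01 for E2F8 (1.9e-08) and -0.71 for RB1 (0.00073). The decreases of E2F1 to E2F3 before recovery went with no decrease of these genes after it, and with all libraries RB1 was called lower only after it (without that replicate also before it in WT, at -0.19). Cell line label and stage cannot be told apart in these values.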

How the results depend on the processing

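Leaving out each library in turn kept direction and call in 811 member values, gained a call in 15, lost one in 11 and reversed the sign in 27, and over the other alternatives these counts were 547, 26, 3 and 8. A further bound of 1 was set on the log2 size of strand-blind values. No member then stayed called in WT or ID3-KO AID-DIvA cells, where 7.38% and 7.46% of all genes did. In U2OS cells 1 did in WT and 1 in ID3-KO, beside 18.6% and 20.3%. Between untreated genotypes none did, beside 4.58% in AID-DIvA and 4.26% in U2OS cells. Between stages 0 did in WT and 1 in ID3-KO, beside 15.8% and 16.6%. On sense-strand counts E2F5 also passed the bound, at -1.21 in ID3-KO AID-DIvA, -2.19 in WT U2OS and -1.33 in ID3-KO U2OS cells. Its sense-strand stage difference in WT, 1.34, passed too. Between untreated U2OS genotypes 4 members were called by DESeq2, 4 without a filter and 5 with all 4 groups in the fit, beside 19.1%, 8.50% and 25.0% of all genes, and 2 to 6 when a library was left out. On sense-strand counts with replicate 1 of untreated WT U2OS left out, an alternative added after seeing the data, 6 were called there and 1 in the U2OS interaction, beside 44.0% and 10.1% of all genes. The U2OS interaction called 1 member under DESeq2, without a filter, on sense-strand counts and with all 24 libraries, beside 4.92%, 1.85%, 2.27% and 3.44% of all genes, and 0 to 1 when a library was left out. Neighbouring groups of the members stood apart in 12 pairs in TPM and in 23 to 33 when a replicate was left out. These pairs were not counted over all genes either. The cause was not tested.

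Reversals were of values near 0, E2F5 excepted. With at least 10 counts in every library, E2F7 and RB1 in ID3-KO U2OS cells were each 0.03 and E2F6 between untreated U2OS genotypes was 0.00, as it was with all 4 groups in the fit. On sense-strand counts the stage difference of E2F5 in ID3-KO was 0.13, and with replicate 1 of untreated WT U2OS also left out it was 0.12, E2F6 between untreated U2OS genotypes was -0.01 and E2F3 in the U2OS interaction was 0.03. Leaving out a library gave -0.02 to 0.04 for E2F3 in WT and -0.09 to 0.02 in ID3-KO AID-DIvA cells, -0.01 to 0.03 for E2F6 and -0.19 to 0.00 for RB1 in WT U2OS cells, and -0.03 to 0.04 for E2F7 and -0.06 to 0.04 for RB1 in ID3-KO U2OS cells. Between untreated U2OS genotypes E2F6 ran from -0.02 to 0.02. In the AID-DIvA interaction E2F1 ran from -0.12 to 0.00, E2F3 from -0.09 to 0.01, E2F6 from -0.05 to 0.10 and RB1 from -0.27 to 0.05, and in the U2OS interaction E2F3 ran from -0.09 to 0.04 and RB1 from -0.01 to 0.19. The stage difference of E2F6 ran from -0.01 to 0.12 in WT and from -0.07 to 0.03 in ID3-KO.

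A replicate block kept the members called at 5 in WT AID-DIvA, 5 in WT U2OS and 6 in ID3-KO U2OS cells, beside 44.2%, 44.7% and 70.9% of all genes. Between untreated genotypes the counts stayed at 5 in AID-DIvA and 2 in U2OS cells, beside 35.6% and 10.9%. They stayed at 0 in the AID-DIvA and U2OS interactions (0.738% and 1.74%) and at 5 between stages in WT and ID3-KO (44.8% and 45.7%). In ID3-KO AID-DIvA cells the count fell from 5 to 4, beside 32.2% of all genes. There E2F1 was 0.22 with an edgeR adjusted p of 0.069. The shared numbers did not pair the samples. Over all genes the block lowered the AID-DIvA interaction from 258 to 157 calls.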

Other observations

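The neighbourhood of ID3 on chromosome 1, which holds E2F2, was looked at after the rise of E2F2 in the knockouts was seen. Within 250000 bases of ID3, E2F2 was the only gene called higher in untreated ID3-KO against WT, among 15 genes tested in AID-DIvA and 14 in U2OS cells by edgeR. In AID-DIvA cells 6 genes were called lower, beside 18.1% of all genes, among them PITHD1 at -0.46 ± 0.05 on the log2 scale (adjusted p = 1.8e-06), RPL11, a ribosomal protein gene, at -0.19 ± 0.05 (adjusted p = 0.0037) and ID3 itself at -0.56 ± 0.07 (adjusted p = 8.4e-06). In U2OS cells ID3 was called lower, at -1.03 ± 0.17 (edgeR adjusted p = 0.0065).

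ID3 rose with mocetinostat in WT AID-DIvA cells, from 50.4 ± 2.2 to 118.8 ± 14.2 CPM after recovery, and in the ID3-KO cells from 34.7 ± 3.6 to 64.8 ± 3.2 CPM (SD, n = 3), or by 1.24 and 0.90 on the log2 scale. In U2OS cells before recovery it was higher by 0.22 ± 0.08 in ID3-KO (SE; edgeR adjusted p = 0.021). The WT value was 0.40 ± 0.17 (edgeR adjusted p = 0.088), and 0.63 without untreated replicate 1, which was called (edgeR adjusted p = 3.7e-12). Its reads in the knockouts do not show whether a functional transcript was left.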
